A study of Mus musculus with 9 samples.

Results

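The 42 genes described here encode proteins that carry a cell through mitosis and cytokinesis, from the cyclins that start division to the proteins that cut the daughter cells apart. They were listed by name, with no threshold on a measured value but with earlier results of these data known. All 42 were found among the 56289 gene identifiers of the gene expression table. RNA was measured by paired-end sequencing of poly-A RNA in 9 libraries, 3 in each of 3 groups. All 9 are labelled as RAW264.7, a macrophage-like mouse line of BALB/c origin, with no genetic change named. The first group was untreated. The TNF group received TNF-alpha, a cytokine that activates NF-kB and drives inflammation in joints, for 24 h. The TNF plus WBG group received TNF-alpha together with WBG for 24 h; WBG stands for Wang Bi granules, a herbal preparation that the study examined for rheumatoid arthritis. No dose, and no time for the untreated cells, was found in the labels. Nothing in them says whether the 3 libraries of a group came from separate cultures, so the spread behind each p-value is that between these libraries and may be technical.

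Expression values are FPKM, fragments per kilobase of transcript and per M (mega) fragments. A gene was tested where it reached 1 FPKM in at least 3 of the 9 libraries, which left 13026 genes, all 42 members among them. Library depth was inferred from the spacing of low values at 18.9 to 26.0 M fragments, if 1 step is 1 fragment, and 12611 to 12737 genes reached 1 FPKM in a library. The macrophage label was not borne out by marker genes. Of 15 macrophage markers, 3 had a mean of 1 FPKM or more, the 15 together summed to 8.64 to 12.2 FPKM per library, and Ptprc, Itgam, Adgre1 and Tyrobp were listed at 0 in all 9 libraries. Of 15 fibroblast markers, 12 passed 1 FPKM on average, and their summed level was 5431 to 6002 FPKM per library, with overlapping sums in the 3 groups. None of the 8 lymphocyte markers and none of the 8 epithelial and endothelial markers reached that mean.

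Entry into mitosis is driven by the kinase Cdk1 bound to cyclins A and B, and the kinases Plk1, Aurka and Aurkb then organise the spindle and chromosomes. The spindle assembly checkpoint holds cells before anaphase until kinetochores are attached, after which the anaphase promoting complex (APC/C) with Cdc20 marks securin and cyclin B for destruction and separase cleaves cohesin. Transcripts of these genes accumulate from S phase to mitosis. In resting cells the DREAM complex represses many of them through the cell cycle homology region (CHR) of their promoters, and in dividing cells the MuvB core with B-Myb and FoxM1 activates them, often beside boxes bound by NF-Y.

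The promoter letters were read first. The choice of names did not use them, but these motifs are the ones named above for promoters of such genes. Their share among members is therefore no independent test. Sequences came from RefSeq promoter windows on GRCm38.p6, which held 35 of the 42 members; Aurkb, Ccna2, Cdc25c, Incenp, Kif20a, Smc4 and Tpx2 were not matched. Exact matches were counted for the CHR, TTTGAA or TTCGAA, and for the NF-Y box, CCAAT, on both strands. The 250 bases before the start are shown for Top2a, which decatenates DNA and was the member that rose with TNF, for Cdk1 and for Ccnb2, which encodes cyclin B2. They lie on the minus strand at chr11:99024190-99024439, chr10:69352913-69353162 and chr9:70421555-70421804. Capitals mark each match to either motif, also where it reads on the other strand (TTCAAA or ATTGG), and the last base is the one before the start.
Top2a: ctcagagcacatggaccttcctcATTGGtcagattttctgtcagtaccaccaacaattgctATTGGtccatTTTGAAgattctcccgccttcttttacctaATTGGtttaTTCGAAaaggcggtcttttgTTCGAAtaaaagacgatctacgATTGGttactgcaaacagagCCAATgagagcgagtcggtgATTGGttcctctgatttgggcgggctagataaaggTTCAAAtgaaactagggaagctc
Cdk1: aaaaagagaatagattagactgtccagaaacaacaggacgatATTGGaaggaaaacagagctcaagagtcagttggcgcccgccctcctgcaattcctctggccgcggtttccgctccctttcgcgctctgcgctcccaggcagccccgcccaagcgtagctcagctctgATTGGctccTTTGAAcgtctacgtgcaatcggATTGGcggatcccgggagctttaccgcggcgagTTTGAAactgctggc
Ccnb2: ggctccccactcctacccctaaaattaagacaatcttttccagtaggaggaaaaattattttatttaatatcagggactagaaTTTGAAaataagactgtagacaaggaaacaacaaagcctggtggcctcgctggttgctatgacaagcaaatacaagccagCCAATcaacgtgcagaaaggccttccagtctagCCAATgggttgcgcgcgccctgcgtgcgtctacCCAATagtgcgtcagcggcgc
The Top2a window held 4 CHR and 6 CCAAT matches, that of Cdk1 held 2 and 3, and that of Ccnb2 held 1 and 3. These 3 windows were picked to be shown, and no member window held more CHR matches than that of Top2a. Among the 35 member windows, 28 (80%) held a CCAAT and 17 (48.6%) held at least 2. Over all 27025 genes with a window the shares were 34.2% and 10.4%, and over the 9250 of them that were tested 36.9% and 13.9%. A CHR stood in the 250 bases of 14 members (40%), against 17.4% of all genes and 11.9% of tested genes, and both motifs stood in 13 (37.1%), against 6.14% and 4.75%.

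Many member CHR matches lay just past the start, outside those windows. Counting on to 50 bases after the start raised the members with a CHR to 29 (82.9%), against 19.4% of all genes and 13.5% of tested genes, and those with both motifs to 26 (74.3%), against 7.57% and 5.72%. A CHR that began between 30 bases before and 50 bases after the start was found for 26 of 35 members (74.3%), for 4.09% of all genes and for 2.82% of tested genes; that range was chosen after the positions were seen. Of the 62 CCAAT matches, 45 began within 120 bases before the start. No share over all genes was taken for that CCAAT range, so this count gives no contrast with other promoters. The stretches below, shown for where the motif lies, are 20 bases around CHR matches that begin after the start of cyclin B2, Plk1, the checkpoint kinase Bub1, the kinetochore protein Cenpf, the kinesins Kif4 and Kif23, and the GTPase-activating protein Racgap1, with the CHR in capitals. Their positions are chr9:70421538-70421557, chr7:122159458-122159477, chr2:127831833-127831852, chr1:189688072-189688091, chrX:100626077-100626096, chr9:61946785-61946804 and chr15:99651639-99651658. The plus strand carries Plk1 and Kif4, and the minus strand the others.
Ccnb2: cgcggtaTTTGAAtcgcgga
Plk1: cgccgcgTTTGAAttcgggg
Bub1: cggggaaTTCGAAtcgccgg
Cenpf: cgggcagTTTGAAtcgctcg
Kif4: ggatcaaTTTGAAacttggc
Kif23: tggcctgTTTGAAatgcgcc
Racgap1: gcgtgatTTTGAAccggatc
Among these stretches Bub1 alone carries TTCGAA, and the others carry TTTGAA. Mad2l1, Nuf2, Nusap1 and Pttg1 had no match to either motif in the window, which says only that these letters were not found there. A match is a description and not a measured binding site.

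**Figure D1:**
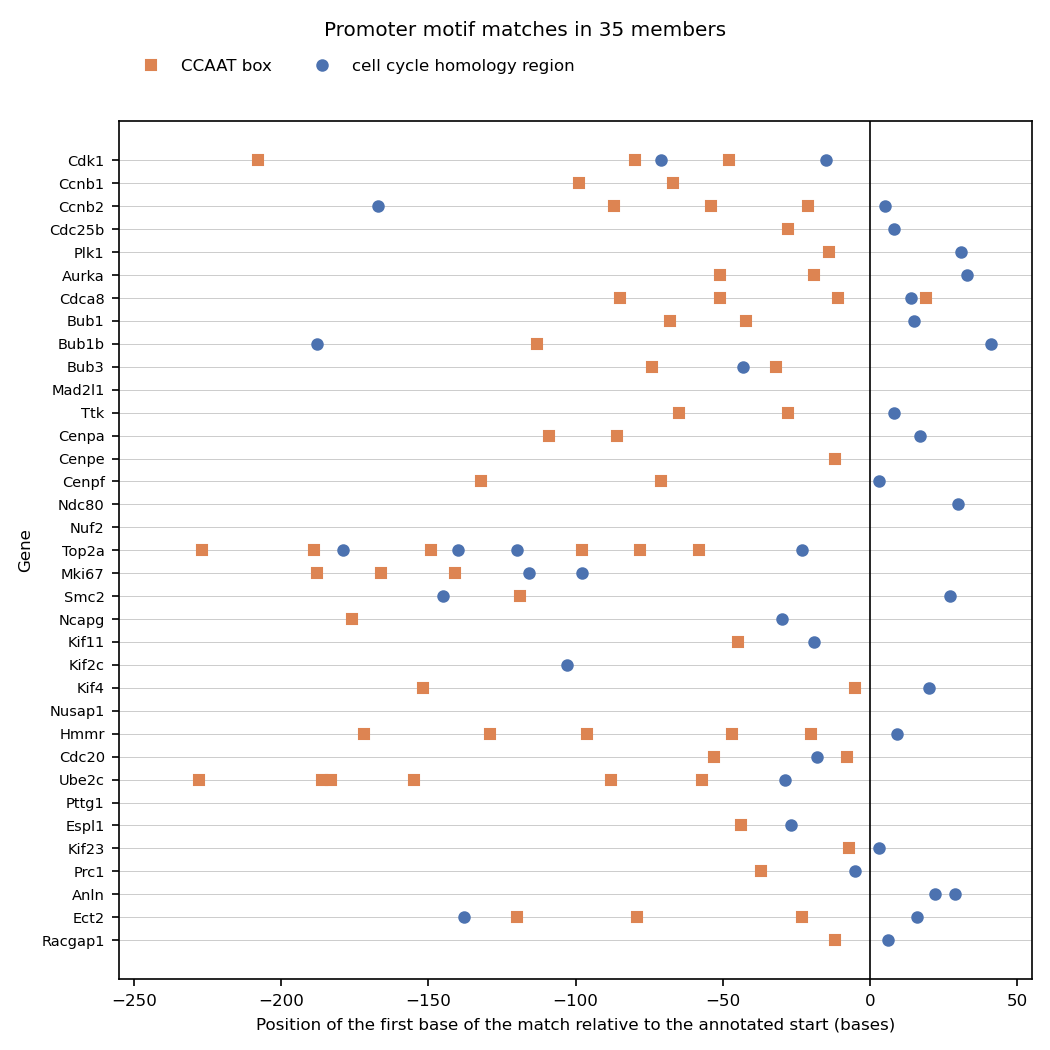
Positions of CHR and CCAAT matches (horizontal axis, bases from the gene start) in the promoter windows of 35 members (rows). CHR matches gather around and just after the start, with 26 of 35 members holding one from 30 bases before to 50 after it, and 45 of 62 CCAAT matches begin within the 120 bases before the start. No share over all genes was taken for the CCAAT range.

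All 42 members reached 1 FPKM in each of the 9 libraries. Their mean levels over the 9 libraries ran from 1.37 FPKM for Cdc25c to 30.6 FPKM for Top2a, with a median of 6.35 FPKM, below the 10.3 FPKM of all genes tested. The 5 highest were Top2a, the checkpoint protein Bub3 (25.2 FPKM), the condensin subunit Smc4 (16.9 FPKM), Cdk1 (15.5 FPKM) and Racgap1 (14.2 FPKM). A mean of 10 FPKM or more was reached by 10 members, 25 lay between 3 and 10, and 7 lay under 3, among them the kinetochore proteins Cenpe and Cenpf. Libraries of a group mostly agreed closely, with a median coefficient of variation over the members of 6.56% in untreated, 9.98% in TNF and 7.82% in TNF plus WBG.

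With TNF, most members were slightly higher and 1 of them passed the test. Top2a rose from 27.0 ± 0.69 to 32.9 ± 1.43 FPKM (SD, n = 3), and no member fell. In all, 37 of 42 members (88.1%) had a fitted change above 0, against 50% of all genes tested, and the median change was 0.13 on the log2 scale, against 0.00 for all genes. With a pseudocount of 5 that median was 0.08. The largest changes stayed small, between -0.17 for Cdk1 and 0.32 for Pttg1. The 95% interval of 37 of the 42 changes lay within 0.5 of 0 on the log2 scale. Among all genes tested, 6.43% rose and 4.21% fell. The share of members called, 2.38%, was 1 gene, too few to be read as a difference from that background. At an unadjusted p under 0.05, 10 members were higher and 0 lower, where all genes had 13.1% and 10.9%. The 3 TNF libraries all lay above the 3 untreated ones for 12 members and below them for 0, where all genes had 15.5% and 14.4%. In such bulk RNA, more cells anywhere from S phase to mitosis and more RNA per such cell cannot be told apart. Changes were fitted with limma on log2(FPKM + 1), adjusted by Benjamini-Hochberg over the 13026 genes and called at an adjusted p under 0.05; the pseudocount of 1 makes them smaller than the ratio for low genes.

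**Figure D2:**
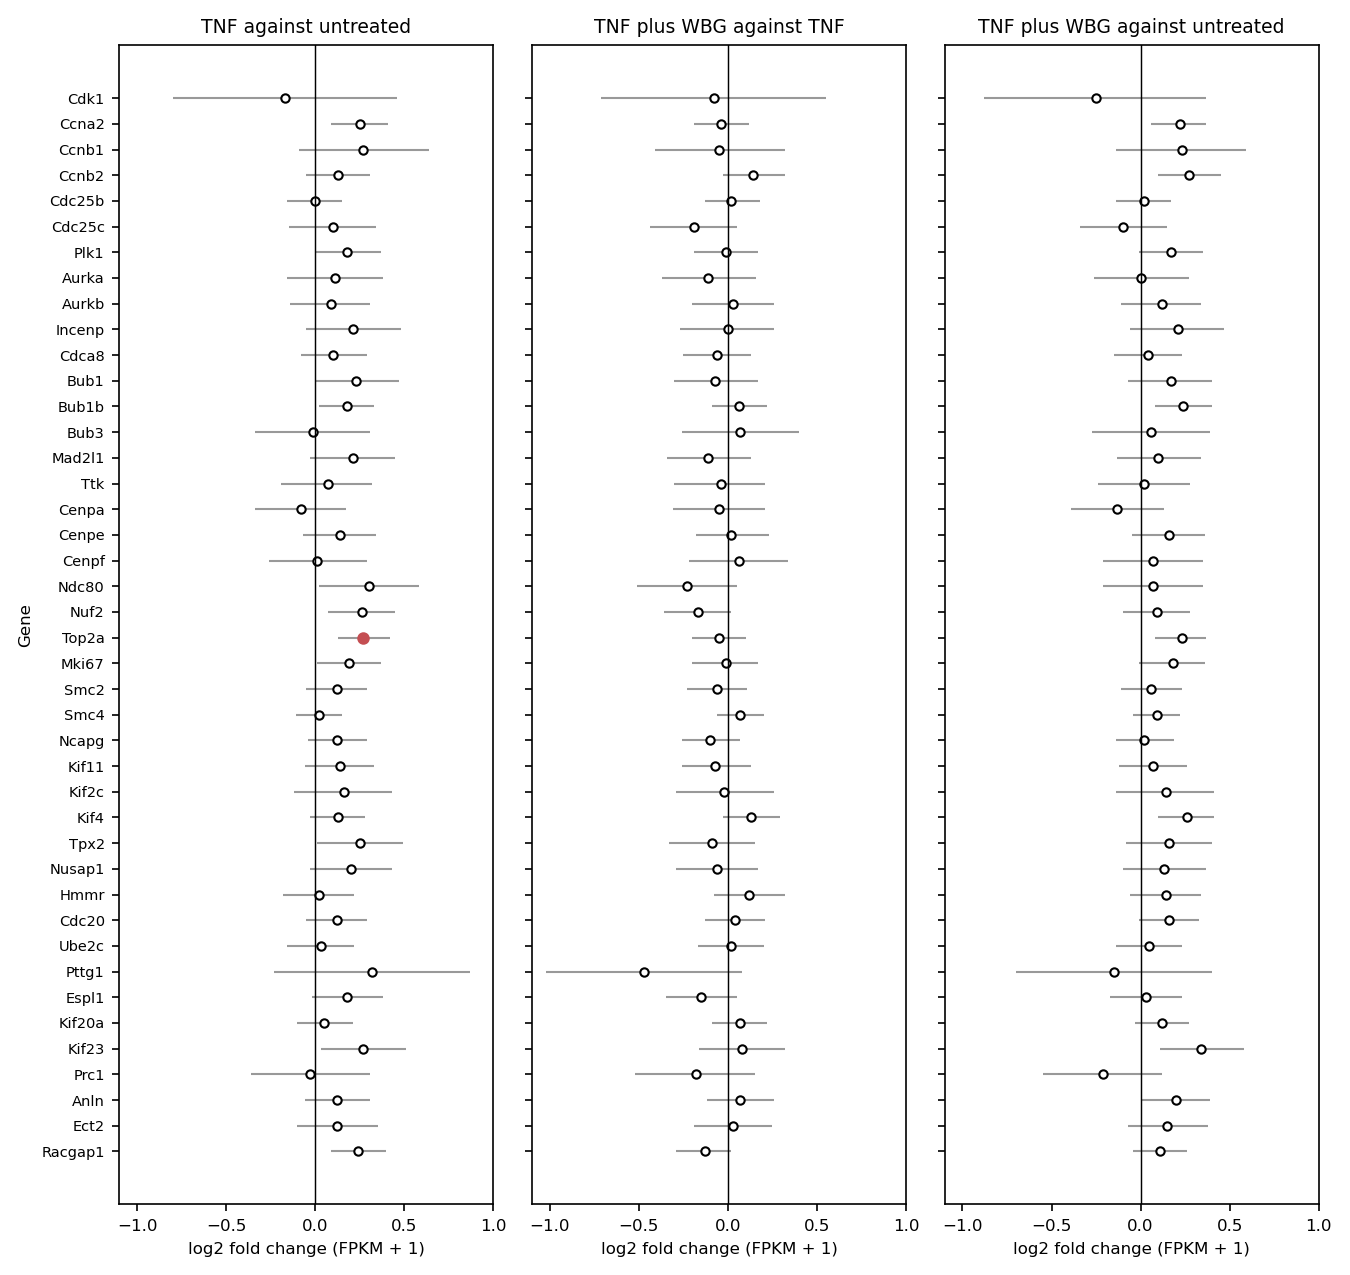
Log2 fold change of each member (rows, by role) with its 95% interval in the 3 comparisons (panels), from limma on log2(FPKM + 1); a filled red point marks a call. In both comparisons with untreated 37 of 42 points lie above 0, and Top2a in TNF against untreated is the 1 call. Those comparisons share the same 3 untreated libraries, so they are not independent of each other.

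Of the chromosome structure genes, Top2a measured 26.3, 27.1 and 27.7 FPKM in the untreated libraries, 34.5, 31.9 and 32.3 in TNF, and 32.4, 34.4 and 28.8 in TNF plus WBG. All 6 treated libraries lay above the 3 untreated ones. The change with TNF was 0.27 ± 0.06 (SE) on the log2 scale, a 1.22-fold ratio of means (adjusted p = 0.0289, limma). The call rested on every library of the comparison, since leaving out any 1 of the 6 ended it, with adjusted p from 0.056 to 0.0929 and changes from 0.24 to 0.30. Top2a shares exonic bases with the small nucleolar RNA gene Gm23451, at a mean of 0.04 FPKM. The other 4 genes of this role did not pass. The proliferation antigen Mki67 had a change of 0.19 (adjusted p = 0.197) and the condensin subunits Smc2, Smc4 and Ncapg had changes of 0.12, 0.02 and 0.12. Ncapg measured 7.52, 7.15 and 7.87 FPKM in untreated, 8.92, 8.20 and 7.71 in TNF, and 7.21, 8.32 and 7.46 in TNF plus WBG, with overlap between all groups.

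Of the 6 genes for entry into mitosis, 4 were higher with TNF and none passed, with a median change of 0.11. Cyclin A2 came closest. Ccna2, given in full after its values were seen, measured 8.42, 8.81 and 7.89 FPKM in untreated, 11.1, 9.43 and 9.99 in TNF, and 9.55, 10.3 and 9.78 in TNF plus WBG. Both treated groups lay wholly above the untreated one, and the change with TNF was 0.25 ± 0.07 (adjusted p = 0.0524, limma). Its exons overlap those of Exosc9 (mean 9.96 FPKM) on the other strand. Strand was taken as not kept by this library kit, in which case reads of the pair cannot be told apart there. The same limit holds for Cdc25b, Cdc25c, Plk1, Cdca8, Ncapg, Nusap1, Cdc20, Kif20a and Prc1, which also overlap genes on the other strand. Cyclin B1 was more variable: Ccnb1 measured 9.16, 9.17 and 6.38 FPKM in untreated, 8.17, 9.91 and 12.4 in TNF, and 10.4, 9.85 and 8.82 in TNF plus WBG. Its groups overlapped, with a change of 0.27 ± 0.16 (adjusted p = 0.357).

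The value of Cdk1 below 0 rested on 1 library. Its levels were 29.4, 11.1 and 13.96 FPKM in untreated, 14.97, 14.3 and 14.7 in TNF, and 14.6, 13.3 and 13.6 in TNF plus WBG. Untreated replicate 1 was 2.35 times the mean of the other 2 untreated libraries, while the 6 treated libraries lay between 13.26 and 14.97. The change with TNF was -0.17 ± 0.28 (adjusted p = 0.766), and 0.22 (adjusted p = 0.214, the lowest of its alternatives, which reached 0.869) without that library. Cdc25c, a phosphatase that activates Cdk1, measured 1.53, 1.14 and 1.44 FPKM in untreated, 1.26, 1.75 and 1.61 in TNF, and 1.15, 1.37 and 1.12 in TNF plus WBG, with overlap throughout. Its paralogue Cdc25b differed least, at 4.47 ± 0.16 FPKM in untreated and 4.46 ± 0.28 in TNF (SD, n = 3).

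**Figure D3:**
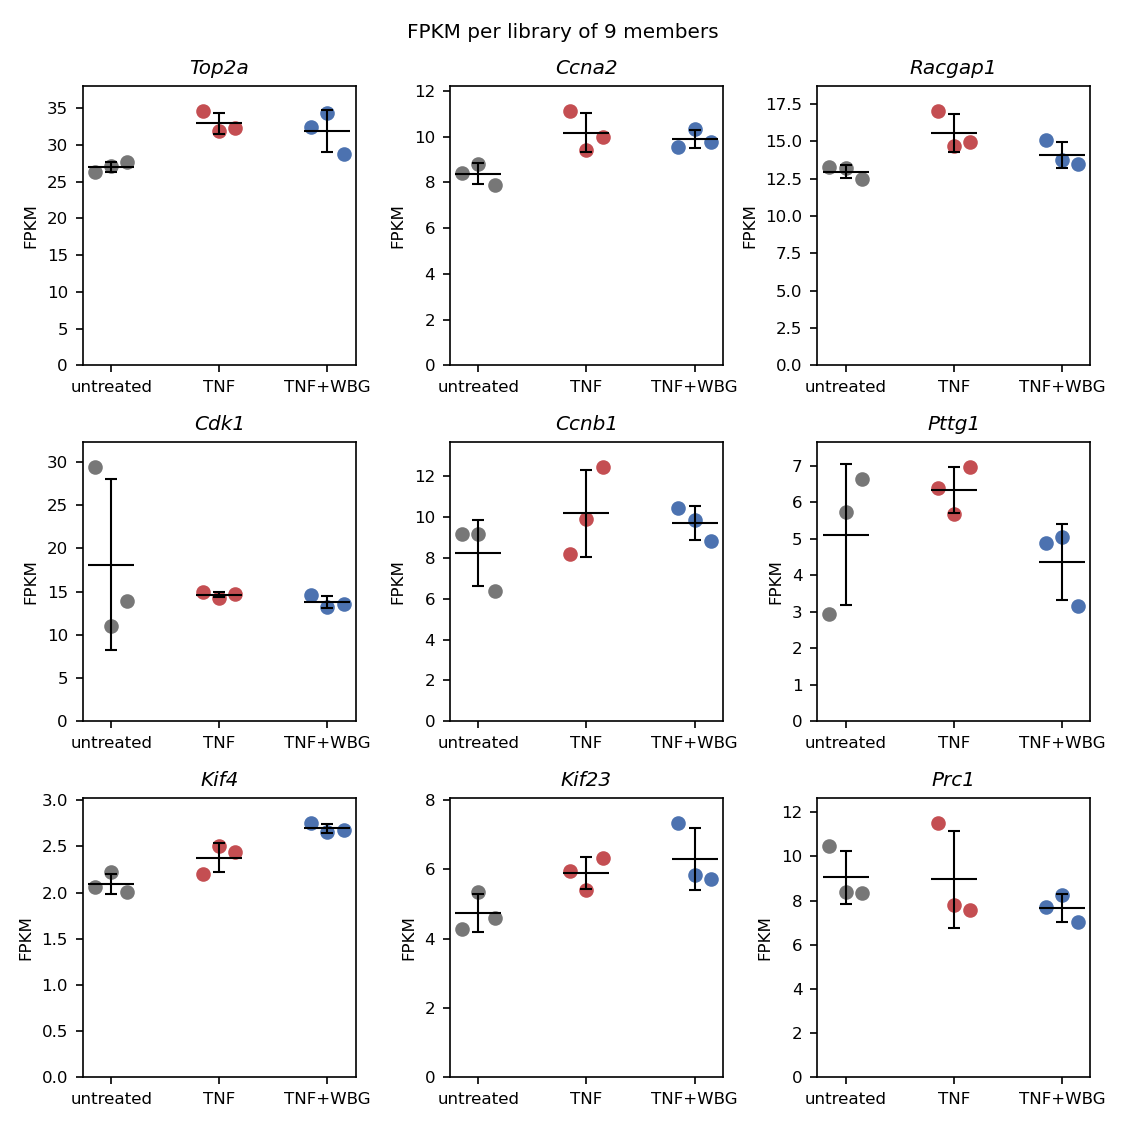
FPKM (vertical axes, from 0) of 9 members in each library (points) by group, with the mean (line) and SD (bar) of 3 libraries. Top2a and Ccna2 are higher in all treated libraries than in any untreated one, Cdk1 has 1 untreated library at 29.4 FPKM, and Pttg1 and Kif4 do not overlap between TNF and TNF plus WBG.

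The Polo and Aurora kinases and the chromosomal passenger complex, which corrects faulty attachments, had 5 of 5 genes higher with TNF and none called, with changes from 0.09 to 0.21. Incenp, the scaffold of the complex, measured 8.63, 11.5 and 10.7 FPKM in untreated, 14.1, 11.5 and 10.6 in TNF, and 12.1, 12.2 and 11.6 in TNF plus WBG. TNF overlapped untreated (adjusted p = 0.318), while all 3 TNF plus WBG libraries lay above untreated. Aurka, the centrosomal kinase, measured 4.19, 4.18 and 3.71 FPKM in untreated, 4.49, 3.59 and 5.30 in TNF, and 3.64, 4.05 and 4.44 in TNF plus WBG, with overlap between all groups. Plk1 was higher in every TNF library than in any untreated one, at 6.98 ± 0.53 against 6.02 ± 0.37 FPKM (SD, n = 3), and did not pass (adjusted p = 0.197).

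Among spindle checkpoint genes, 4 of 5 were higher with TNF, with a median change of 0.18 and none called. The kinase Bub1 measured 2.49, 2.73 and 2.87 FPKM in untreated, 3.65, 3.01 and 3.41 in TNF, and 3.01, 3.76 and 2.75 in TNF plus WBG. TNF lay wholly above untreated (change 0.23, adjusted p = 0.209) and the WBG group overlapped both. Mad2l1, which inhibits Cdc20, showed the same order, with 6.03, 5.18 and 5.85 FPKM in untreated, 7.34, 6.19 and 6.68 in TNF, and 6.87, 6.57 and 5.18 in TNF plus WBG (adjusted p = 0.263 for TNF). Bub3, the most abundant of the checkpoint genes, measured 32.1, 21.5 and 21.96 FPKM in untreated, 27.9, 21.9 and 24.1 in TNF, and 25.2, 25.6 and 26.8 in TNF plus WBG. Untreated replicate 1 was again the highest, and the change with TNF was -0.01, or 0.17 (adjusted p = 0.339, the lowest of its alternatives) without that library.

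The centromere and kinetochore genes held 4 of 5 higher with TNF and none called. Ndc80 and Nuf2 are partners in the complex that grips microtubules. Ndc80 measured 1.93, 2.24 and 3.08 FPKM in untreated, 3.18, 3.11 and 3.21 in TNF, and 2.19, 2.76 and 2.73 in TNF plus WBG. The TNF libraries were tightly grouped above both other groups, and the change was 0.30 ± 0.12 (adjusted p = 0.18), while the untreated libraries spread 1.60-fold. Without untreated replicate 3 that change was 0.44 and passed (adjusted p = 0.0387, the lowest of its alternatives, which reached 0.399). Nuf2 was also higher in every TNF library than in any untreated one, at 5.25 ± 0.55 against 4.21 ± 0.11 FPKM (SD, n = 3; adjusted p = 0.0939). Cenpa, the centromeric histone, measured 14.4, 15.1 and 13.6 FPKM in untreated, 14.9, 11.5 and 14.3 in TNF, and 12.7, 15.2 and 11.4 in TNF plus WBG, with overlap throughout and a change of -0.08 with TNF.

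Spindle motors and microtubule binding proteins were higher with TNF for 6 of 6, with a median change of 0.15 and none called. Tpx2, which activates Aurka on the spindle, measured 6.28, 5.29 and 5.22 FPKM in untreated, 7.33, 5.87 and 7.35 in TNF, and 5.99, 7.11 and 6.01 in TNF plus WBG, and TNF overlapped untreated (change 0.25, adjusted p = 0.189). The chromosome-borne kinesin Kif4 measured 2.06, 2.22 and 2.01 FPKM in untreated, 2.20, 2.5 and 2.44 in TNF, and 2.75, 2.66 and 2.68 in TNF plus WBG. Its TNF plus WBG libraries lay above all 6 others. Kif4 exons overlap those of Pdzd11 on the other strand, at a mean of 18.3 FPKM, and the same limit holds.

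For anaphase, all 4 genes were higher with TNF and none passed. Ube2c, the E2 enzyme of the APC/C, measured 13.6, 12.3 and 12.4 FPKM in untreated, 12.4, 12.6 and 14.3 in TNF, and 13.9, 14.0 and 11.8 in TNF plus WBG, with overlap throughout and a change of 0.03. Its exons overlap those of Tnnc2 on the other strand, which had a mean of 48.0 FPKM. Pttg1, securin, the inhibitor of separase, measured 2.94, 5.75 and 6.64 FPKM in untreated, 6.39, 5.69 and 6.96 in TNF, and 4.90, 5.04 and 3.16 in TNF plus WBG. Its change with TNF of 0.32 ± 0.24 (adjusted p = 0.48) rested on 1 low untreated library, and was 0.03 (adjusted p = 0.941, in a range of 0.291 to 0.941 over its alternatives) without untreated replicate 1.

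Central spindle and cytokinesis genes were higher with TNF for 5 of 6, with none called. Racgap1 and Kif23 together form centralspindlin, which sets the cleavage site. Racgap1 measured 13.3, 13.2 and 12.4 FPKM in untreated, 16.99, 14.7 and 14.96 in TNF, and 15.1, 13.8 and 13.4 in TNF plus WBG. Each TNF and TNF plus WBG library lay above the untreated ones (TNF change 0.24 ± 0.07, adjusted p = 0.0554, limma). Kif23 measured 4.28, 5.34 and 4.60 FPKM in untreated, 5.95, 5.40 and 6.32 in TNF, and 7.33, 5.85 and 5.72 in TNF plus WBG, also with both treated groups above untreated (TNF change 0.27 ± 0.11, adjusted p = 0.164). Prc1, which bundles the midzone microtubules, differed from them, with 10.4, 8.37 and 8.35 FPKM in untreated, 11.5, 7.82 and 7.58 in TNF, and 7.71, 8.25 and 7.03 in TNF plus WBG. Its first untreated and first TNF libraries were high, and all TNF plus WBG libraries lay below the untreated ones.

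The addition of WBG to TNF called no member in either direction. The median change against TNF was -0.04 on the log2 scale, against 0.00 for all genes tested, with 16 members above 0 and 26 below, where all genes had 48.9% and 51.1%. By limma, 0 rose and 0 fell at the adjusted threshold, 0 passed even an unadjusted p under 0.05, and all 19 alternative analyses also called 0. Few genes of any kind were called, 0.0691% rising and 0.0307% falling, while 4.18% and 4.88% passed the unadjusted threshold. The lowest adjusted p of a member was 0.607, for Nuf2. The 95% interval lay within 0.5 of 0 for 38 of the 42 members, so that changes past this size were outside the interval for those and inside it for Cdk1, Ndc80, Pttg1 and Prc1. The 2 groups did not overlap for 3 members, Kif4 higher and Pttg1 and Ndc80 lower, where 7.03% and 7.72% of all genes had that pattern. Pttg1 had the largest change, from 6.35 ± 0.64 to 4.36 ± 1.05 FPKM (SD, n = 3), at -0.47 ± 0.24 with an interval from -1.02 to 0.08 (adjusted p = 0.624). For Ndc80 it was -0.23 ± 0.12 (adjusted p = 0.641) and for Kif4 0.13 ± 0.07 (adjusted p = 0.639). Both this comparison and the first use the TNF libraries, so they are not independent of each other.

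Against untreated, the TNF plus WBG group showed 37 of 42 members higher and 5 lower, where all genes had 49.2% and 50.8%, with a median change of 0.11 and no call. The same untreated libraries served here and in TNF against untreated, so the equal counts of 37 are not independent of each other. The median change of 0.11 became 0.07 without TNF plus WBG replicate 2, and also with a pseudocount of 5. By limma, 0 rose and 0 fell, 7 were higher and 0 lower at an unadjusted p under 0.05, and among all genes 5.52% rose, 3.67% fell, and 12.3% (higher) and 10.5% (lower) passed the unadjusted threshold. Of 19 alternatives, 2 that used all libraries and 3 that left 1 out called 1 member each. The groups did not overlap for 12 higher members and for Prc1 lower, where all genes had 14.5% and 13.6%. The lowest adjusted p was that of Kif4, at 2.70 ± 0.05 against 2.10 ± 0.11 FPKM (SD, n = 3; change 0.26 ± 0.07, adjusted p = 0.0546). The largest change was that of Kif23, at 6.30 ± 0.89 against 4.74 ± 0.55 FPKM (SD, n = 3; 0.34 ± 0.11, adjusted p = 0.0827). Cyclin B2 (Ccnb2, 0.27, adjusted p = 0.0647), the checkpoint kinase Bub1b (0.24, adjusted p = 0.0652) and Top2a (0.23, adjusted p = 0.0676) also came near the threshold. Reads of Ccnb2 may be shared with a pseudogene copy, Ccnb2-ps, which had 1.21 to 4.62 FPKM.

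**Figure D4:**
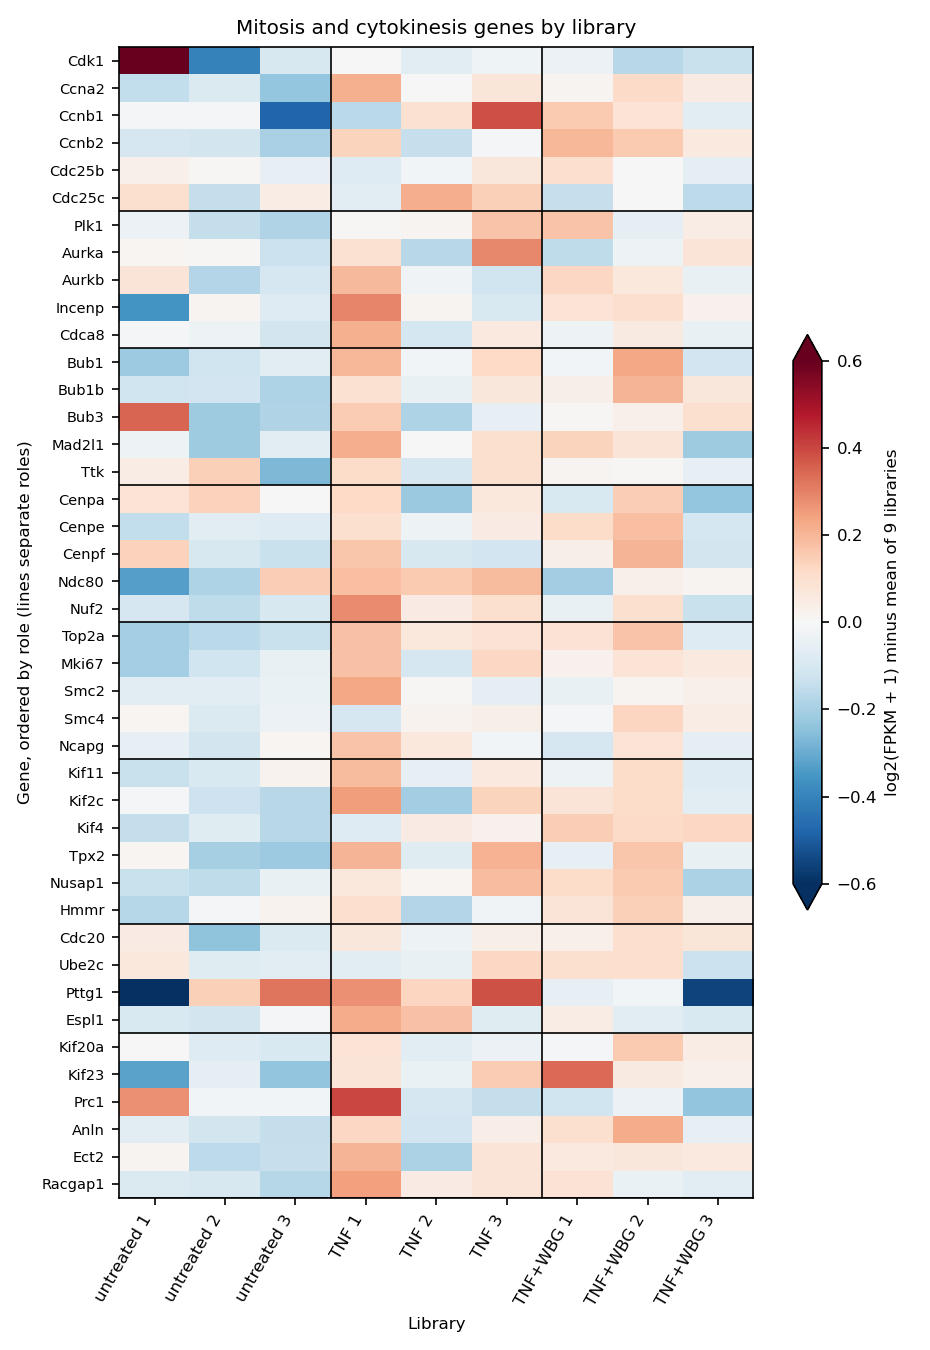
Each member (rows, by role) in each of the 9 libraries (columns), as log2(FPKM + 1) minus its mean over the 9 libraries (colour). Most rows are below their mean in the 3 untreated libraries, TNF replicate 1 holds the highest value for 16 of 42 members, and Cdk1 in untreated replicate 1 stands apart from its row.

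Libraries of 1 group also differed from each other across the members, with a within-group SD of 0.07 for the library medians below. The median deviation of the members from their own 9-library mean was -0.04, -0.10 and -0.09 in the untreated libraries on the log2 scale. It was 0.16, -0.03 and 0.07 in TNF, and 0.03, 0.09 and -0.05 in TNF plus WBG, so TNF plus WBG replicate 3 lay within the untreated range and TNF replicate 2 just above it. Over all genes tested the same median stayed between -0.01 and 0.01 in every library. An untreated library held the lowest value of the 9 for 30 members and the highest for 3, and a TNF library held the highest for 25, of which 16 were in TNF replicate 1. Without that library 35 of 42 members had a change above 0 against untreated, with a median of 0.10; without TNF replicate 2 the count was 41 and the median 0.19. The sign against TNF was less stable: the median for TNF plus WBG was 0.01 without TNF replicate 1 and 0.02 without TNF plus WBG replicate 3, with 21 and 23 members above 0. DNA replication genes were above 0 in all TNF libraries (0.10, 0.04 and 0.10) but were at -0.10 in TNF plus WBG replicate 2, where the mitosis genes were at 0.09.

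**Figure D5:**
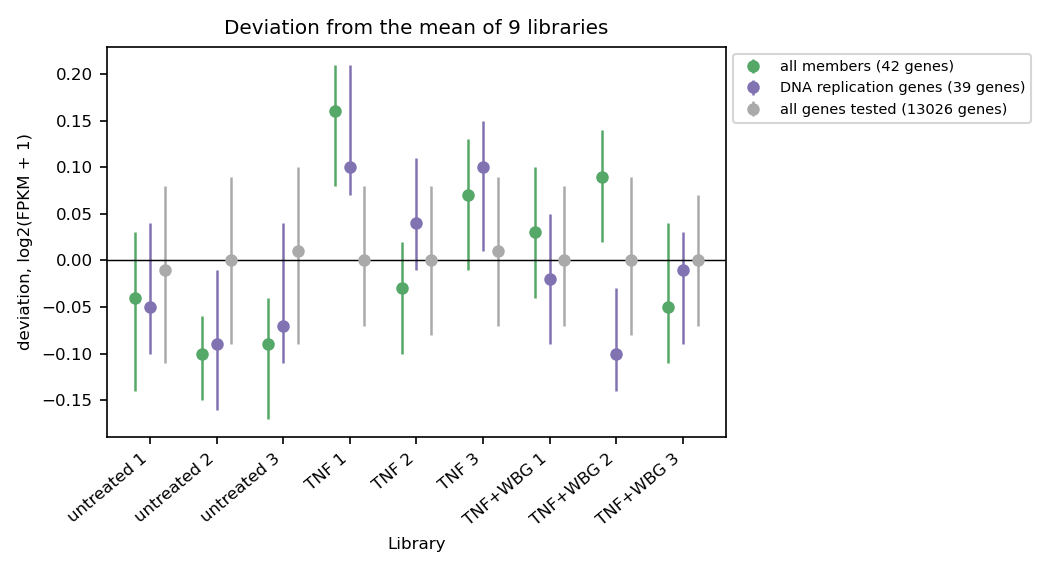
Median (point) and quartiles (bar) of log2(FPKM + 1) minus each gene's 9-library mean, per library, for the 42 members, 39 DNA replication genes and all genes tested. The members range from -0.10 in untreated replicate 2 to 0.16 in TNF replicate 1, while all genes stay within 0.01 of 0.

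Other genes of the cell cycle gave the setting. Of 105 further mitosis genes 102 were tested. With TNF, 77 were higher, 6 rose (Pimreg, Gtse1, Sgo1, Anapc7, Anapc13 and Melk) and 0 fell, with a median change of 0.11. The share that rose, 5.88%, lay near the 6.43% of all genes tested, of which 4.21% fell. The kinase Melk rose from 2.00 ± 0.19 to 2.88 ± 0.18 FPKM (SD, n = 3; 0.37, adjusted p = 0.0324), and Pimreg from 7.65 ± 0.29 to 9.90 ± 0.71 (0.33, adjusted p = 0.0128). The Melk call was lost with no filter (adjusted p = 0.0971) and without any 1 of 5 of the 6 libraries compared (0.0583 to 0.105). With TNF plus WBG, 2 of these genes rose against untreated, 1.96% beside 5.52% of all genes. Pimreg stood at 9.64 ± 0.52 FPKM (limma, adjusted p = 0.0226, and 0.0687 to 0.0815 without any 1 of 4 of the 6 libraries). The spindle protein Dlgap5 went from 2.21 ± 0.27 to 3.47 ± 0.24 FPKM (0.48, limma, adjusted p = 0.00829). Against TNF none of the 102 genes was called by limma, with 1 higher and 6 lower at an unadjusted p under 0.05. Their changes ran from -0.35 to 0.35, and the lowest adjusted p was 0.387. Cenpn, at 1.96 ± 0.19 against 2.77 ± 0.32 FPKM, had the lowest change (-0.35, adjusted p = 0.407).

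The 24 regulators of the mitotic gene program included DREAM and MuvB subunits, E2F and Rb family members, NF-Y subunits, FoxM1 and B-Myb. They were centred near 0 with TNF (median 0.03, 13 higher, 0 called by limma, 2 higher and 2 lower at an unadjusted p under 0.05). The list mixes activators and repressors, so its median gives no direction for either. FoxM1 transcript measured 5.89 ± 0.53 FPKM in untreated, 7.27 ± 1.26 in TNF and 5.42 ± 1.62 in TNF plus WBG, and that of B-Myb (Mybl2) 2.98 ± 0.32, 3.73 ± 0.16 and 3.33 ± 0.35 (SD, n = 3). No comparison of either gene passed (lowest adjusted p = 0.116, Mybl2 with TNF). Dyrk1a, a kinase that promotes DREAM assembly, fell against untreated with TNF plus WBG, from 14.7 ± 1.58 to 10.4 ± 0.92 FPKM (change -0.47, adjusted p = 0.0383). That call was lost with no filter on low values (limma, adjusted p = 0.103). Leaving out any 1 of several libraries also ended it, with adjusted p up to 0.129. Among them was TNF replicate 2 (0.0582), which is outside that comparison.

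Of 16 genes of G1, 14 were tested, and 3 rose both with TNF and with TNF plus WBG against untreated: Cdk6, a kinase that phosphorylates Rb, its partner cyclin D1 (Ccnd1), and the CDK inhibitor Cdkn1a. That was 21.4% of those tested in each comparison, beside 6.43% and 5.52% of all genes. Cdk6 measured 5.82, 5.34 and 6.23 FPKM in untreated, 11.4, 11.7 and 12 in TNF, and 9.27, 9.79 and 8.99 in TNF plus WBG, with no overlap between any groups (TNF 0.90 ± 0.06, adjusted p = 3.04e-05; TNF plus WBG against TNF -0.30, adjusted p = 0.307). Ccnd1 rose from 84.9 ± 2.31 to 121 ± 1.5 FPKM (SD, n = 3; adjusted p = 3.01e-05) and stood at 112 ± 3.43 with WBG. Cdkn1a rose from 12.9 ± 0.93 to 17.2 ± 0.53 FPKM (adjusted p = 0.0174) and stood at 19.8 ± 2.33 with WBG (adjusted p = 0.00253 against untreated). Its call with TNF was lost without any 1 of 4 of the 6 libraries (adjusted p 0.0519 to 0.0653).

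DNA replication genes were higher with TNF for 36 of 39, with a median of 0.15. In that comparison 3 rose and 1 fell, 7.69% and 2.56% beside 6.43% and 4.21% of all genes. The rises were Uhrf1 (0.36, adjusted p = 0.0127), which guides maintenance methylation, the helicase subunit Mcm5 (0.31, adjusted p = 0.0468) and Gmnn (0.34, adjusted p = 0.0292), the inhibitor of licensing. The Gmnn call was lost with no filter (adjusted p = 0.0688), with only the 6 libraries compared (0.0644) and without any 1 of 4 of them (0.0664 to 0.0901). For Mcm5, nearest the threshold of the 3 that rose, no alternatives were examined. Cdt1, the licensing factor that Gmnn inhibits, fell from 12 ± 0.51 to 8.79 ± 0.26 FPKM (SD, n = 3; adjusted p = 0.0132, and 0.0529 without untreated replicate 3). With WBG added to TNF, 33 of the 39 were lower and the median was -0.13, beside -0.04 for the mitosis genes; 0 were called by limma, and 0 higher and 14 lower at an unadjusted p under 0.05. The largest change was in the other direction: Fen1, a flap endonuclease, was at 9.75, 8.79 and 10.53 FPKM with TNF plus WBG and at 10.96, 2.75 and 2.97 with TNF (0.92, adjusted p = 0.662), and at 2.58, 2.6 and 10.33 in untreated. All 3 groups overlapped. Uhrf1 stood at 12 ± 0.75 FPKM with TNF plus WBG against 14.1 ± 1.30 with TNF (adjusted p = 0.483). Against untreated, the TNF plus WBG group had 23 replication genes higher and 16 lower, with a median of 0.03. None rose, and Cdt1 fell to 8.91 ± 1.16 FPKM (SD, n = 3; change -0.40, adjusted p = 0.0159, and 0.0542 to 0.063 without any 1 of 3 of the 6 libraries). Whether the replication and mitosis genes differed in this response was not tested.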

How the data were processed

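Values are FPKM per gene and library as the authors deposited them, with no counts. Per the labels' protocols the libraries were poly-A TruSeq libraries, a kit taken here as not keeping strand, read from both ends on an Illumina instrument. Not given in the sources used here were the aligner, quantifier, gene models and build. GENCODE M21 gave symbols for 55144 of the 56289 identifiers, and 1145 stayed without one. Columns were mapped to samples by their names, and 0 columns were left unused. Depth was inferred at 18.9 to 26.0 M fragments from steps in the low values (24.7 to 27.2% lay within 0.02 of a multiple, 4% under an even spread), searched from 10 to 30 M; no count was derived. No 2 libraries were identical.

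Genes with at least 1 FPKM in at least 3 of 9 libraries were fitted as log2(FPKM + 1) in limma 3.58.1 under R 4.3.3, using its trend option, group as the only term and all 9 libraries in 1 fit. Tests were two-sided; p-values were adjusted by Benjamini-Hochberg across the 13026 genes and called under 0.05. The fit was also run on simulated normal data with its own spread, a check of the code that gives no error rate for these data. Errors are SD beside FPKM and SE beside log2 changes. Motifs, tables and figures were made with python 3.11.15 with pandas 2.3.3, numpy 2.4.6 and, for plots, matplotlib 3.10.9; where a gene had several promoter windows, as 3 members had, the one of lowest coordinate was used. The last 30 bases of 29 of the 35 member windows were found in a transcript of the gene.

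The members and the lists were chosen with earlier results of these data known. Values per library are given for each member called, and in each role for the member of highest mean and those of the largest change with TNF and with WBG against TNF. From each other list up to 2 called genes per direction and comparison are named, or the 1 of largest change; other genes were named after their values were seen. Alternatives were other pseudocounts (0.1 and 5), filters, scalings and spread models, the 6 compared libraries alone, a replicate block, and leaving out each library.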

Additional observations from a re-analysis of the deposited data

How the results depend on the processing

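Every count of fallen members was 0 under all 19 alternatives of each comparison, as was the count that rose in TNF plus WBG against TNF. The count that rose with TNF, 1, became 0 with no filter on low values and 3 (Top2a, Ccna2 and Racgap1) with a mean of at least 5 FPKM; leaving out 1 library gave 0 to 1, with Ndc80 in place of Top2a without untreated replicate 3 and Ccna2 without TNF replicate 2. Over the alternatives the adjusted p of Top2a (limma) ran from 0.00983 to 0.0929. For TNF plus WBG against untreated, 0 became 1 (Kif4) with a pseudocount of 5 and with limma without a trend, and leaving out 1 library gave 0 to 1; the adjusted p of Kif4 ran from 0.0177 to 0.153. The cause was not tested. Members above 0 numbered 35 to 41 of 42 with TNF and 34 to 37 with TNF plus WBG against untreated when 1 library was left out, counts added after the data were seen. With a mean of at least 5 FPKM both were 23 of 27, since fewer genes were tested.

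With the replicate block, 1 member rose with TNF, Racgap1 (adjusted p = 0.0364, in a range of 0.0364 to 0.163 over its alternatives) in place of Top2a (adjusted p = 0.0565). The numbers gave no pairing: deviations of same-numbered libraries correlated at -0.07 to 0.11, and 1 of 9 pairings fitted its own number best. Counting to 50 bases after the start moved the share of member promoters with a CHR from 40 to 82.9%, and with both motifs from 37.1 to 74.3%, because many matches begin after the start. Over the single genes named by rule, 6 further calls appeared and 40 were lost across the alternatives, with 0 reversed among called changes. Depth was inferred and no counting error can be given, and with 3 libraries a group the median SE of a member was 0.09 on the log2 scale.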
